A study of Mus musculus with 7 samples.

Results

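The genes described here are the nuclear-encoded subunits of respiratory complexes II, III and IV and of the ATP synthase, complex V. They were taken as all protein-coding genes of GENCODE M21 (GRCm38) whose symbol begins with Uqcr, Atp5 or Cox4 to Cox8, together with Sdha, Sdhb, Sdhc, Sdhd and Cyc1, and without Cox7a1. The rule used names only, but the members were chosen with earlier results of these data known. It found 48 identifiers, of which 47 were matched among the 45706 genes of the deposited tables and 43 had enough reads to be tested. Kidney RNA came from 7 male Slc7a9-/- mice aged 6 months. Of these, 4 mice received L-ergothioneine at 16 mg/kg/day in their drinking water and 3 were untreated. Both groups carried the same knockout of Slc7a9, whose product carries cystine back from the urine and whose loss is a model of cystinuria. No value here compares the knockout with wild-type kidney. The comparison asks how kidney RNA of this model differs with ergothioneine, a dietary antioxidant that contains sulfur.

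The 4 complexes sit in the inner mitochondrial membrane. Complex II oxidises succinate and passes the electrons to ubiquinone, complex III passes them from ubiquinol to cytochrome c, and complex IV passes them to oxygen. Complexes III and IV pump protons, and the ATP synthase uses the returning protons to make ATP. Tubule cells of the kidney, above all those of the proximal tubule and the thick ascending limb, are rich in mitochondria and use this ATP to drive sodium transport. Complex II is encoded wholly in the nucleus, whereas complexes III, IV and V also hold subunits made from mitochondrial DNA.

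Libraries held 14843882 to 19791577 counts. In bulk kidney, fewer cells of a type and less RNA per cell cannot be told apart. The summed level of 12 proximal tubule markers was 24092 to 26593 CPM (reads scaled to library size) with ergothioneine and 25401 to 28788 CPM untreated, so the groups overlapped, and 3 of the 12 fell while 0 rose by edgeR (1 rose by DESeq2 and 0 by limma-voom, 4 at an unadjusted p under 0.05 in either direction). Markers of the thick ascending limb and distal tubule summed to 6762 to 7663 CPM with ergothioneine and 6148 to 6595 CPM untreated, which did not overlap. Of these 9, 1 rose by edgeR, Slc12a1, and 2 rose by DESeq2 and by limma-voom. Calb1 had the largest log2 fold change of the 9, 0.86 ± 0.19 (SE), with groups that did not overlap (edgeR adjusted p = 0.0552). Of 8 collecting duct markers, 2 rose (Slc4a1 and Slc26a4), with sums of 483 to 533 CPM against 426 to 463 CPM. Over all genes tested by edgeR, 3.58% passed as higher and 3.57% as lower. No marker of these 3 segments was at 0 in all libraries. The part that segment make-up plays in the results below was not tested.

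Most subunits stood slightly higher with ergothioneine, and 12 of the 43 tested ones passed as higher (27.9%), against 3.58% of all 15399 genes tested (edgeR's quasi-likelihood test, adjusted p under 0.05). One subunit, Cox8b, passed as lower, against 3.57% of all genes. The median standard error was 0.06 for the 43 and 0.11 over all genes tested. A shift of a given size therefore passed more readily among the subunits, and the shares called are not on an equal footing. The members were also chosen with earlier results of these data known, so the contrast with all genes is a description only. The median log2 fold change of the 43 was 0.13, against 0.00 over all genes tested, and 38 of the 43 were positive. In 21 of the 43 every ergothioneine kidney lay above every untreated kidney, against 9.46% of all genes tested, and in 1 every ergothioneine kidney lay below, against 9.11%. The subunits together took 3.96% to 4.11% of the TPM (reads scaled to transcript length and to a fixed sum) of nuclear protein-coding genes with ergothioneine, and 3.63% to 3.79% untreated. Summed over the 47 genes, levels were 9831 to 10605 CPM with ergothioneine and 9419 to 9640 CPM untreated. The 12 rises became 4 without untreated kidney 1 and 5 without ergothioneine kidney 2, and 1, Atp5g1, passed against untreated kidney 3 alone.

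**Figure D1:**
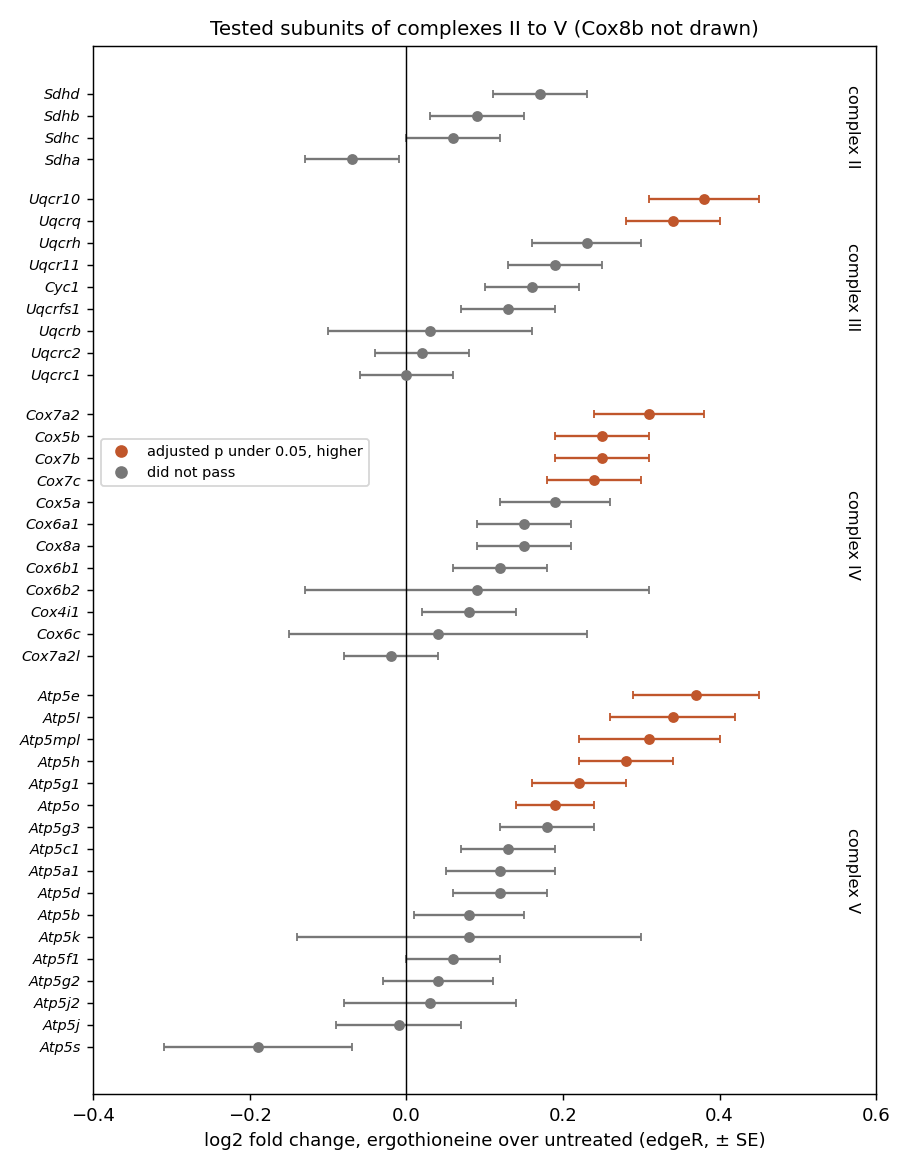
Log2 fold change of ergothioneine over untreated (x axis, edgeR, bars are the standard error) for 42 tested subunits (rows), grouped by complex; orange marks an adjusted p under 0.05. Orange points lie between 0.19 and 0.38, and no point on the negative side passed. Cox8b, at -4.80, is off the scale and is not drawn.

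Complex II did not pass in any subunit. By edgeR 0 of 4 were called, with 1 at an unadjusted p under 0.05 and 0 by DESeq2 or limma-voom. Sdha, the flavoprotein that oxidises succinate, had 532, 541, 505 and 493 CPM with ergothioneine and 566, 516 and 545 CPM untreated. Sdhb, the iron-sulfur subunit, had 184, 204, 206 and 189 CPM against 175, 191 and 187 CPM. The groups overlapped in both genes, and Sdha was the one subunit of complex II with a negative log2 fold change, -0.07 ± 0.06 (SE, edgeR adjusted p = 0.607). The membrane anchor Sdhc had 208, 224, 214 and 203 CPM with ergothioneine and 202, 194 and 217 CPM untreated. The other anchor, Sdhd, had 161, 190, 192 and 182 CPM against 154, 164 and 166 CPM, with a log2 fold change of 0.17 ± 0.06 (adjusted p = 0.132). Only ergothioneine kidney 1 fell within the untreated range of Sdhd.

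In complex III, 2 of 9 subunits rose, both small accessory proteins of the membrane part. Uqcr10 (chromosome 11, 4701973 to 4704342, GRCm38) had 96.9, 102, 114 and 96.5 CPM with ergothioneine, against 74.3, 76.4 and 85.5 CPM untreated. Uqcrq, which lies beside cytochrome b, had 95.8, 101, 105 and 102 CPM with ergothioneine and 76.1, 79.7 and 84.1 CPM untreated. In both genes all ergothioneine kidneys stood above all untreated ones, and in both untreated kidney 3 was the highest of its group. The log2 fold changes were 0.38 ± 0.07 for Uqcr10 and 0.34 ± 0.06 for Uqcrq (SE, edgeR adjusted p = 0.00281 and 0.00193). They were the only rises that passed whichever single kidney was left out, with adjusted p up to 0.0213 and 0.0152.

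The catalytic and core subunits of complex III moved less. Cyc1, the haem protein that hands electrons to cytochrome c, averaged 222 ± 9.45 CPM with ergothioneine and 198 ± 8.34 CPM untreated (SD, n = 4 and 3, edgeR adjusted p = 0.0931). Uqcrfs1, the Rieske iron-sulfur protein, averaged 285 ± 10.1 CPM against 261 ± 8.34 CPM (adjusted p = 0.192). Both stood above the untreated range in every ergothioneine kidney, yet neither passed. The core proteins Uqcrc1 and Uqcrc2 lay at log2 fold changes of 0.00 ± 0.06 and 0.02 ± 0.06, with overlapping groups. The hinge protein gene Uqcrh (0.23 ± 0.07, adjusted p = 0.0569) and Uqcr11 (0.19 ± 0.06, 0.0703) missed the threshold with groups that did not overlap.

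In complex IV, 4 of 13 tested subunits rose and Cox8b fell. Cox7a2, the form of subunit VIIa found in most tissues, had 178, 182, 196 and 168 CPM with ergothioneine and 131, 154 and 151 CPM untreated (log2 fold change 0.31 ± 0.07, edgeR adjusted p = 0.00867). Cox5b, the zinc-binding subunit on the matrix side, had 108, 113, 104 and 106 CPM against 91.8, 85.8 and 94.1 CPM (0.25 ± 0.06, adjusted p = 0.0128). Neither gene's groups overlapped. Cox7b, a single-pass membrane subunit, had 134, 142, 141 and 133 CPM with ergothioneine and 111, 122 and 115 CPM untreated (0.25 ± 0.06, adjusted p = 0.0128). Cox7c had 217, 216, 229 and 196 CPM against 182, 189 and 174 CPM (0.24 ± 0.06, adjusted p = 0.0231). Ergothioneine kidney 4 was the lowest of its group for Cox7a2, Cox7b and Cox7c. All 4 rises lost their call without some kidney: Cox5b without ergothioneine kidney 2, Cox7a2 without untreated kidney 1, Cox7b without either of these, and Cox7c without any except untreated kidney 2 and ergothioneine kidney 4 (adjusted p up to 0.0535, 0.0561, 0.0707 and 0.0916).

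The other main complex IV subunits were positive without passing. Cox4i1, the common form of subunit IV, had 243, 251, 245 and 213 CPM with ergothioneine and 217, 230 and 227 CPM untreated (log2 fold change 0.08 ± 0.06). Cox6a1 had 270, 244, 247 and 237 CPM against 242, 225 and 206 CPM (0.15 ± 0.06), and Cox6b1, which faces the intermembrane space, 191, 187, 190 and 176 CPM against 175, 174 and 165 CPM (0.12 ± 0.06). Cox8a had 301, 326, 323 and 305 CPM with ergothioneine and 289, 281 and 280 CPM untreated (0.15 ± 0.06). Groups did not overlap for Cox6b1, Cox8a and Cox5a (0.19 ± 0.07), and edgeR adjusted p-values of these 5 genes ran from 0.0937 for Cox5a to 0.507 for Cox4i1. Cox7a2l, which helps to join complexes III and IV into supercomplexes, was level, with 71.3, 78.1, 80.0 and 72.4 CPM against 73.2, 79.8 and 76.4 CPM (-0.02 ± 0.06, adjusted p = 0.913).

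The ATP synthase held 6 of the rises among its 17 tested genes. Of the F1 head, whose alpha and beta subunits form the catalytic sites, only the small epsilon subunit Atp5e passed. It had 39.9, 47.4, 46.7 and 43.2 CPM with ergothioneine and 30.9, 34.0 and 38.2 CPM untreated (log2 fold change 0.37 ± 0.08, edgeR adjusted p = 0.0115). The beta subunit Atp5b had 2241, 2272, 2216 and 2119 CPM against 2181, 2035 and 2046 CPM (0.08 ± 0.07, adjusted p = 0.554). Atp5a1, the alpha subunit, had 1530, 1634, 1582 and 1474 CPM with ergothioneine and 1470, 1389 and 1445 CPM untreated (0.12 ± 0.07, adjusted p = 0.356). Atp5b had more reads than any other subunit, and its groups overlapped, while those of Atp5a1 and Atp5e did not. The gamma and delta subunits Atp5c1 and Atp5d lay at 0.13 ± 0.06 and 0.12 ± 0.06 and did not pass.

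Of the peripheral stalk, which holds the head still, 2 of 4 subunits rose. Atp5h, subunit d, had 99.0, 107, 113 and 101 CPM with ergothioneine and 82.1, 91.8 and 85.4 CPM untreated (log2 fold change 0.28 ± 0.06, edgeR adjusted p = 0.0110). Atp5o, the oligomycin sensitivity-conferring protein, had 189, 198, 191 and 180 CPM against 167, 163 and 168 CPM (0.19 ± 0.05, adjusted p = 0.0400). A second identifier named Atp5o (chromosome 16, 91684398 to 91926982) overlaps the 3' end of this gene and was not analysed here. Subunit b, Atp5f1 (0.06 ± 0.06), and coupling factor 6, Atp5j (-0.01 ± 0.08), did not pass.

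The membrane part Fo gave the other 3 rises. Atp5l, subunit g, had 127, 143, 145 and 122 CPM with ergothioneine and 93.5, 112 and 113 CPM untreated (log2 fold change 0.34 ± 0.08, edgeR adjusted p = 0.0158). Atp5mpl, a small proteolipid of the complex, had 28.9, 33.0, 33.9 and 28.2 CPM against 23.5, 23.7 and 27.8 CPM (0.31 ± 0.09, adjusted p = 0.0445). For Atp5mpl the gap between groups was narrow, with ergothioneine kidney 4 just above untreated kidney 3, and the gene did not pass by DESeq2 or limma-voom. Subunit c, which forms the rotating ring, is encoded by 3 genes. Atp5g1 had 149, 152, 144 and 151 CPM with ergothioneine and 133, 129 and 121 CPM untreated (0.22 ± 0.06, adjusted p = 0.0198). Atp5g2 had 94.8, 83.8, 103 and 89.9 CPM against 90.4, 93.7 and 86.8 CPM (0.04 ± 0.07, adjusted p = 0.811), and Atp5g3 had 264, 288, 285 and 274 CPM against 255, 233 and 246 CPM (0.18 ± 0.06, adjusted p = 0.0596). By TPM within each kidney, Atp5g1 made up 29.3% to 32.1% of the 3 with ergothioneine and 28.6% to 31.3% untreated, Atp5g2 at most 18.4% with ergothioneine and 18.0% to 19.4% untreated, and Atp5g3 50.8% to 53.0% and 49.3% to 53.1%. The ranges of the groups overlapped for all 3 genes. Counts of Atp5g1, Atp5g2, Atp5h, Atp5l and Cox7a2l were not whole in all 7 libraries, nor those of Atp5f1 in 6, Cox5b in 2 and Cox7c in 1, so reads shared with similar sequences were split by the authors' counting and these levels are uncertain.

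**Figure D2:**
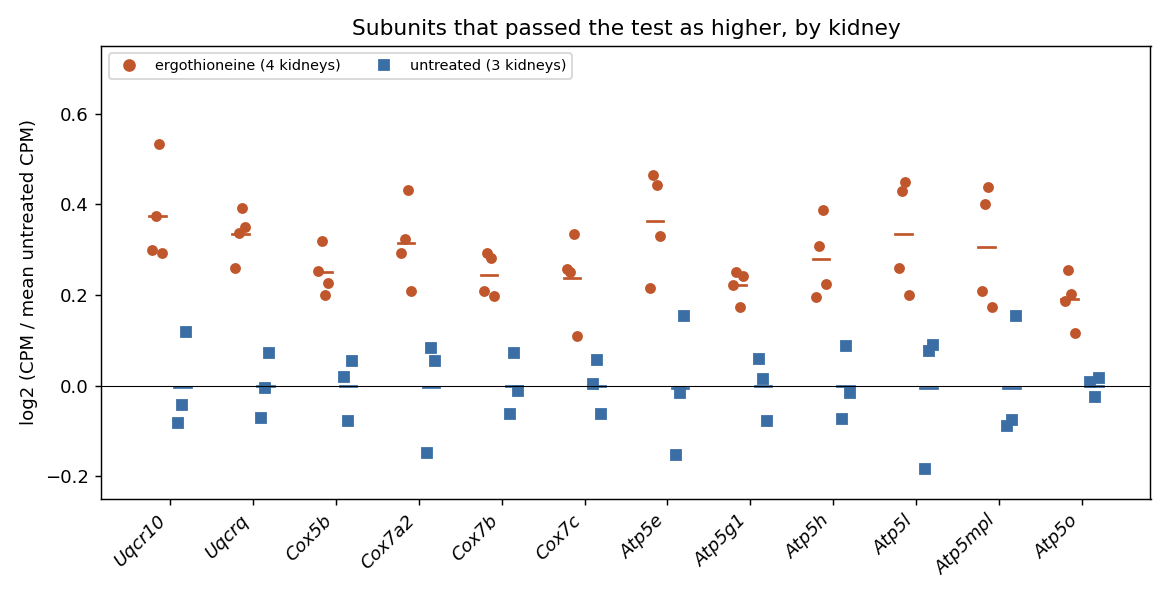
Level of the 12 subunits that rose, in each kidney, as log2 of CPM over the mean untreated CPM (y axis); circles are the 4 ergothioneine kidneys, squares the 3 untreated ones, and short lines the group means. Circles lie above squares for every gene, most narrowly for Atp5mpl and Cox7c.

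Among the ATP synthase rises, leaving out untreated kidney 1 ended the call of Atp5e, Atp5h, Atp5l, Atp5mpl and Atp5o. Leaving out ergothioneine kidney 2 ended that of Atp5g1, Atp5l, Atp5mpl and Atp5o. Atp5g1 was also lost without untreated kidney 3 or ergothioneine kidney 1, Atp5mpl without untreated kidney 2 or ergothioneine kidney 1 or 3, and Atp5o without any kidney except ergothioneine kidney 4. The highest adjusted p on leaving out a kidney was 0.0707 for Atp5e, 0.0611 for Atp5h, 0.0698 for Atp5l, 0.0840 for Atp5g1, 0.160 for Atp5mpl and 0.134 for Atp5o. All 12 rises kept their direction in these fits.

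Library names give a number to each library. Untreated kidneys 1 and 2 and ergothioneine kidney 1 have numbers above 40, and untreated kidney 3 and ergothioneine kidneys 2 to 4 numbers below 30. Short non-coding RNA took 0.428% and 0.571% of the counts in untreated kidneys 1 and 2 and 1.83% to 2.79% in the other 5. Its part in the results was not tested. All 12 rises were positive in both ranges of numbers. For Uqcr10 the log2 ratio of means was 0.36 in the libraries above 40 and 0.28 in those below 30, and for Uqcrq 0.30 and 0.29. The 2 ratios differed by more than 1.5 times for Atp5h (0.19 and 0.33), Atp5g1 (0.18 and 0.30) and Atp5mpl (0.29 and 0.19). The other 7 ran from 0.19 to 0.32 above 40 and from 0.18 to 0.30 below 30. With the range as a block, 10 subunits passed as higher. Each range holds 1 kidney of one of the groups, so these ratios carry no test of their own.

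Cox8b was the exception in direction. It is the form of subunit VIII found in heart, skeletal muscle and brown fat (chromosome 7, 140898945 to 140900446). It had 0, 0, 1 and 3 reads with ergothioneine and 30, 22 and 31 reads untreated, or 0, 0, 0.0584 and 0.164 CPM against 1.70, 1.47 and 1.99 CPM. The pooled ratio of ergothioneine over untreated was 0.0319 (95% exact interval 0.00848 to 0.0847, counting error only). The gene passed as lower (log2 fold change -4.80 ± 0.56, edgeR adjusted p = 5.08e-05), whichever kidney was left out. It had enough reads to be tested through the untreated kidneys alone, so the call is no support separate from their higher level. The size of the fold change rests on counts at or near 0. Cox8b supplied 0.0521% ± 0.0743 of the TPM of Cox8a and Cox8b together with ergothioneine and 1.78% ± 0.206 untreated (SD, n = 4 and 3), so nearly all subunit VIII transcripts came from Cox8a in both groups.

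Markers of fat moved with Cox8b. Of 11 tested adipocyte markers 9 fell by edgeR, against 3.57% of all genes tested, 9 by DESeq2 and 8 by limma-voom. By any of the 3, 0 rose (10 were at an unadjusted p under 0.05 in either direction). Some of the 11, such as Cidea, Adipoq and Adrb3, had enough reads to be tested through the untreated kidneys alone, which tilts the count towards falls. Elovl3, Lep, Retn and Zic1 had too few reads to be tested. Ucp1, the uncoupling protein of brown fat, had 0, 0.607, 1.75 and 0.981 CPM with ergothioneine and 17.3, 17.3 and 28.1 CPM untreated. Cidea, a lipid droplet protein, had 0, 0.253, 0 and 0.164 CPM against 2.95, 2.55 and 3.14 CPM. Neither gene's groups overlapped, and ergothioneine kidney 1 had no read of Cox8b, Ucp1 or Cidea. The 15 listed markers, most of whose reads came from Ppargc1a, summed to 165 to 188 CPM with ergothioneine and 195 to 212 CPM untreated, and Zic1 was at 0 in all libraries. Cox7a1, another subunit form shared by muscle and brown fat, stayed level at 3.28 ± 0.325 CPM with ergothioneine and 2.99 ± 0.709 CPM untreated (edgeR adjusted p = 0.760). The part that fat tissue plays in the Cox8b difference was not tested.

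**Figure D3:**
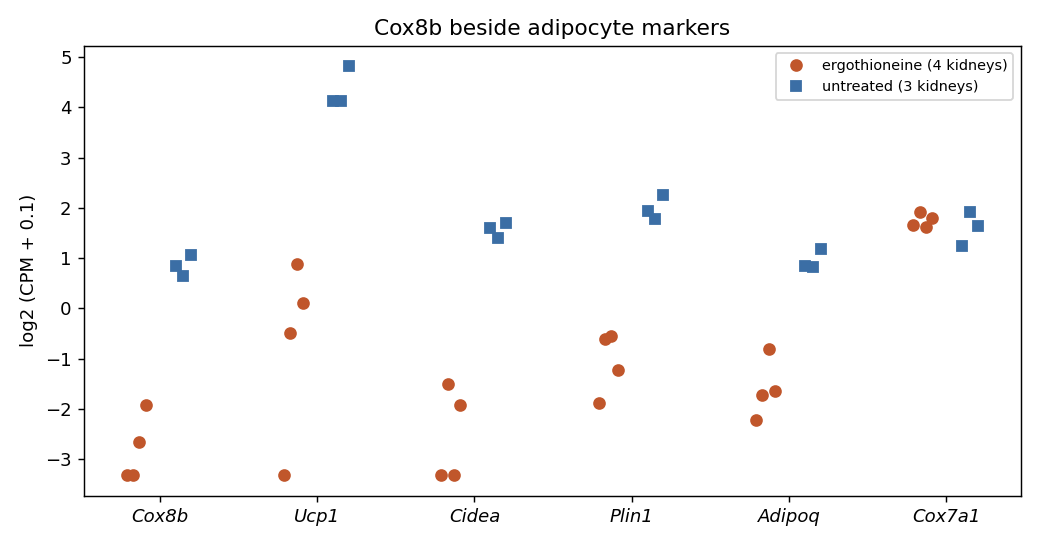
Level of Cox8b and 5 fat or muscle genes in each kidney as log2(CPM + 0.1) (y axis); circles are ergothioneine kidneys and squares untreated ones, and the lowest circles of Cox8b, Ucp1 and Cidea are libraries with 0 reads. Cox8b, Ucp1, Cidea, Plin1 and Adipoq are lower in every ergothioneine kidney, whereas the groups overlap for Cox7a1.

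Other tissue forms were scarce. Cox4i2, the form of subunit IV known from lung, had 2, 3, 2 and 2 reads with ergothioneine and 6, 4 and 4 untreated, and Cox6a2, the heart and muscle form of VIa, 1, 8, 3 and 4 against 2, 3 and 1. Both had too few reads to be tested. Cox6b2, known from testis, had 3.12, 2.33, 2.34 and 2.84 CPM with ergothioneine and 2.27, 2.14 and 3.08 CPM untreated (log2 fold change 0.09 ± 0.22, edgeR adjusted p = 0.879). Cox7b2 and Cox8c, both also known from testis, had 0 reads in all 7 libraries. Atp5s, which RefSeq names Dmac2l, was low too, at 9.80 ± 1.13 CPM against 11.2 ± 0.518 CPM (SD, n = 4 and 3, adjusted p = 0.398).

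A separate pattern, singled out after the values were seen, ran across kidneys rather than groups. Uqcrb, the ubiquinone-binding protein of complex III, had 80.0, 66.5, 68.9 and 66.3 CPM with ergothioneine and 73.1, 79.4 and 54.4 CPM untreated. Cox6c had 98.1, 73.1, 70.1 and 77.2 CPM against 72.1, 97.0 and 62.5 CPM. Both genes were lowest in untreated kidney 3, and high in ergothioneine kidney 1 and untreated kidney 2. The Fo genes Atp5j2 (subunit f) and Atp5k (subunit e) had the same extremes. Atp5j2 had 19.2 to 24.3 CPM with ergothioneine and 20.1, 24.1 and 17.6 CPM untreated. Atp5k had 3.41, 2.58, 2.57 and 2.67 CPM with ergothioneine and 2.95, 3.15 and 1.86 CPM untreated. Atp5j had 49.8, 47.0, 50.6 and 46.9 CPM with ergothioneine and 53.3, 52.1 and 40.9 CPM untreated. In these 5 genes untreated kidney 3 lay below the mean of untreated kidneys 1 and 2 by log2 ratios of -0.32 for Atp5j2 to -0.71 for Atp5k. In Uqcr10 that ratio was 0.18. The standard errors of Uqcrb, Cox6c, Atp5j2 and Atp5k, 0.13, 0.19, 0.11 and 0.22, were above the median of 0.06 for the 43 subunits, and none of the 5 passed between the groups. Low values in untreated kidney 3 were not confined to these genes. The same log2 ratio ran from -0.26 for mt-Co3 to -1.07 for mt-Atp8 among the subunits of complexes III to V made in the mitochondrion. Among complex I subunits it ran from -0.48 for Ndufa13 to 0.34 for Ndufb2.

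**Figure D4:**
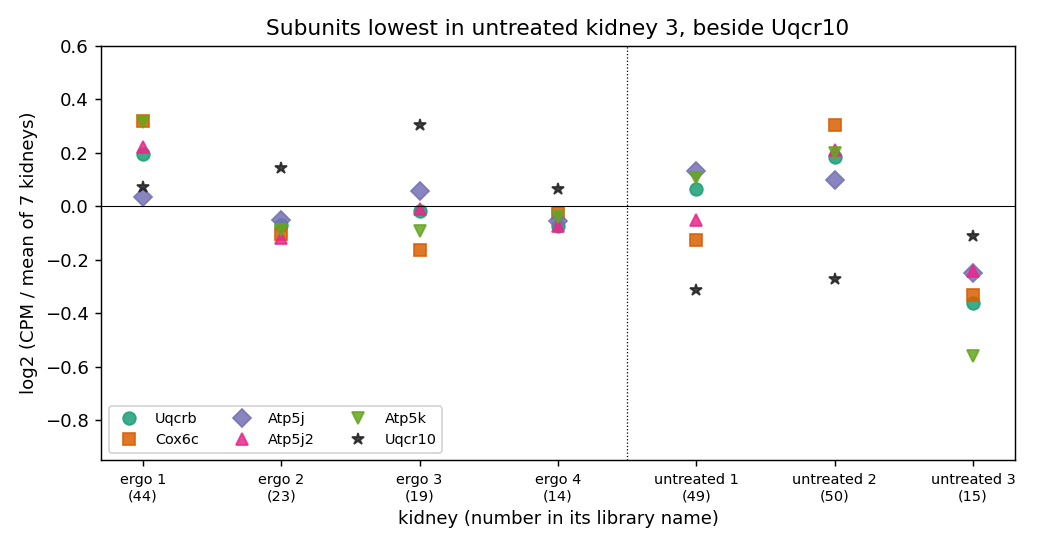
Log2 of CPM over the mean of the 7 kidneys (y axis) for Uqcrb, Cox6c, Atp5j, Atp5j2, Atp5k and, for contrast, Uqcr10, by kidney, with the number in each library name in brackets; the dotted line parts the groups. The 5 genes sit lowest in untreated kidney 3, where Uqcr10 is the highest of the untreated kidneys.

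Levels between genes were set per transcript length, as the mean over the 7 kidneys of TPM rescaled to nuclear protein-coding genes. The 4 subunits of complex II, present in equal number in the protein complex, ran from 384 TPM for Sdhc and 388 for Sdhd to 489 for Sdha and 502 for Sdhb. Complex III ran from 523 TPM for Cyc1 to 1303 for Uqcr10. In complex IV Cox8a (2617 TPM), Cox6a1 (1886), Cox6b1 (1843) and Cox7c (1803) led, and Cox5b (413) and Cox7b (420) were the lowest of those that rose. In the ATP synthase Atp5b had 7265 TPM and Atp5a1 1676, although the head holds their proteins in equal number. The subunits that rose ran from 413 to 1803 TPM.

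Most tested subunits had short annotated transcripts, and so did most of those that rose. Of 17 tested subunits with a median coding transcript under 600 nt 6 rose (35.3%), against 24 of 435 other nuclear protein-coding genes of that length (5.52%). Between 600 and 1000 nt 4 of 14 subunits rose (28.6%), against 85 of 1786 others (4.76%). From 1000 to 2000 nt 1 of 10 subunits rose and 144 of 3670 others (3.92%). From 2000 to 4000 nt 1 of 2 subunits rose, Atp5g1, and 173 of 5089 others (3.40%). These lengths are annotation medians, and the expressed forms may differ. Means with ergothioneine were 149 CPM and 866 TPM (nuclear protein-coding scale) for Atp5g1. They were 278 CPM and 1441 TPM for Atp5g3 (718.5 nt), and 1555 CPM and 1735 TPM for Atp5a1 (2572.5 nt). The TPM of Atp5g1 was thus set with a length near that of Atp5g3, so its place in the 2000 to 4000 nt class is doubtful. Likewise Uqcrc1 (533 nt), which did not rise, had 351 CPM and 583 TPM, and Uqcrb (535 nt) 70.4 CPM and 630 TPM. The TPM of Uqcrc1 was thus set with a longer length, and its place in the class under 600 nt is doubtful too. The median log2 fold change of the subunits was 0.15, 0.14, 0.08 and 0.17 in these classes, and that of the other genes 0.05, 0.02, 0.01 and -0.01. Other genes were thus slightly higher the shorter their transcripts, by less than the subunits.

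**Figure D5:**
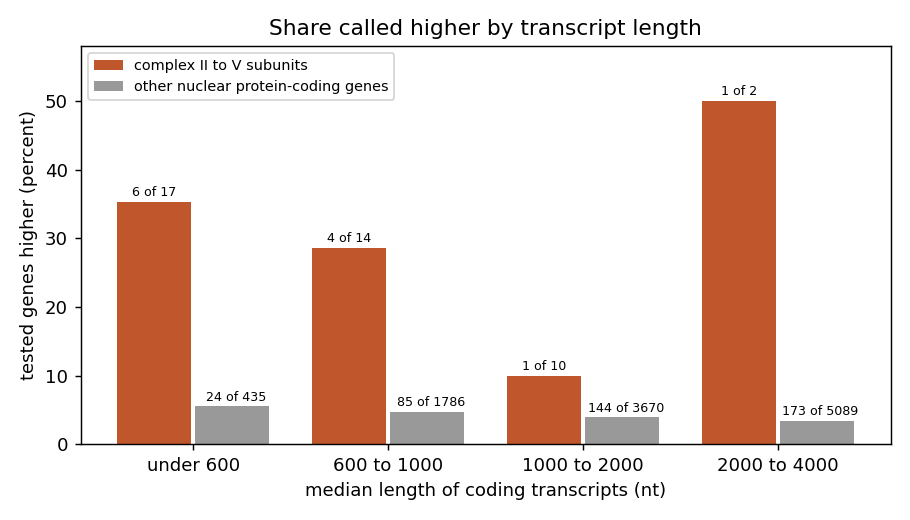
Share of tested genes called higher with ergothioneine (y axis, percent) by median length of coding transcripts (x axis, nt); orange bars are complex II to V subunits and grey bars all other nuclear protein-coding genes, with the counts above each bar. The subunit bars stand above the grey ones in each class. The last class holds only 2 subunits, Atp5g1 and Atp5a1, placed there by annotated median length.

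Because 12 subunits moved together by small amounts, the DNA before their start sites was read from RefSeq (GRCm38.p6). Windows of 250 bases before to 50 after the start were matched for 35 of the 47 subunits, 38 windows in all, and 10 of these windows belonged to subunits that rose. The 250 bases before the start are shown for 4 rising subunits that share an element, for Atp5l, which holds the letters of 4 factors, and for Cox8b, the one that fell. Capitals mark matches on either strand to the motifs below.
Uqcr10 (chr11:4704345-4704594, minus strand): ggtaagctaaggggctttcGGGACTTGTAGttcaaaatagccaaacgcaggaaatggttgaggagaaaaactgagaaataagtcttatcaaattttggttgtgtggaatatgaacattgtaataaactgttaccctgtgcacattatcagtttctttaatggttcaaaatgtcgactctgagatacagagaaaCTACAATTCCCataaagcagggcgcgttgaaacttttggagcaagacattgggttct
Cox7b (chrX:106015450-106015699, plus strand): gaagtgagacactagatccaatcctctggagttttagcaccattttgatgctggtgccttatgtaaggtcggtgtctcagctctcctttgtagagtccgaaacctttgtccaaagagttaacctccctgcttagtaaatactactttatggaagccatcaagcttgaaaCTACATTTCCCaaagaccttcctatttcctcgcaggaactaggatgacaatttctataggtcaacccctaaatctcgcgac
Cox7c (chr13:86046796-86047045, minus strand): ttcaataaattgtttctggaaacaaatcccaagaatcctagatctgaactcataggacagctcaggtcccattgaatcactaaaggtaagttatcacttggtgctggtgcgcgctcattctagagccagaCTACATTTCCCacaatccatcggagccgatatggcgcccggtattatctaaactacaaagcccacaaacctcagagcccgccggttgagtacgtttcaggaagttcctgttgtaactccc
Atp5o (chr16:91931631-91931880, minus strand): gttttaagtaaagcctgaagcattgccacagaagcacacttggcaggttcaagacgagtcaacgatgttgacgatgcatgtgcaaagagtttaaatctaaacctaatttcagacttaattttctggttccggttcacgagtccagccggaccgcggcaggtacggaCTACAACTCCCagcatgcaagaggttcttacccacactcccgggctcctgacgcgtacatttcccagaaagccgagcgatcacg
Atp5l (chr9:44920743-44920992, minus strand): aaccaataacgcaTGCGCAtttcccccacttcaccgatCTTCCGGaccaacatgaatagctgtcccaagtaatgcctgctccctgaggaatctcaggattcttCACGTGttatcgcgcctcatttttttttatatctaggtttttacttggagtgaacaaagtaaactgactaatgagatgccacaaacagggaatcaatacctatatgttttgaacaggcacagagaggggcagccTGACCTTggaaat
Cox8b (chr7:140900447-140900696, minus strand): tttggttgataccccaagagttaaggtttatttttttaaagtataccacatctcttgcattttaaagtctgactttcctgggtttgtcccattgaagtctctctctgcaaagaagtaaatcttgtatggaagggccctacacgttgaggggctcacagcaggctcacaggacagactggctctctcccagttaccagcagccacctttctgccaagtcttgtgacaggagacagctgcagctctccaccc

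In nuclear respiratory genes, NRF1, GABPA of the ETS family, YY1, SP1 and the oestrogen-related receptors are known regulators, and the E-box is bound by clock factors. The letters CCGGAAG (GABPA) stood in 12 of the 38 subunit windows (31.6%), against 11.6% of 21263 windows of protein-coding genes. TGCGCA (NRF1 core) stood in 8 (21.1% against 9.74%) and AAGGTCA (receptor half-site) in 5 (13.2% against 4.08%). The SP1 box GGGCGG stood in 14 (36.8% against 46.2%), the E-box CACGTG in 4 (10.5% against 7.84%) and ATGGCGG (YY1 core) in 2 (5.26% against 5.25%). Of the 10 windows of subunits that rose, 3 held CCGGAAG and 2 TGCGCA, and of the 26 windows of tested subunits that did not pass, 9 and 6. For AAGGTCA these counts were 2 and 3, for GGGCGG 2 and 11, for CACGTG 2 and 2, and for ATGGCGG 0 and 2. Atp5l held the NRF1, GABPA, E-box and receptor letters, at 237, 212, 147 and 13 bases before the start site. No match stood in the window of Cox8b.

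An additional element was looked for after the promoters had been read, so its count describes these windows only. The SBS element is known to be bound by the zinc-finger protein ZNF143 in human promoters. Its letters stood in 6 of the 38 subunit windows (15.8%) and in 2.77% of windows of protein-coding genes. Of these 6, 4 belonged to rising subunits, 231 and 57 bases before the start of Uqcr10, 81 before Cox7b, 120 before Cox7c and 84 before Atp5o. The other 2 were overlapping windows of Atp5d. The motifs do not overlap one another in the windows shown. A match of letters is no measure of binding.

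Related genes gave fewer calls. Of 37 tested complex I subunits 5 rose (13.5%, against 3.58% of all genes tested) and 0 fell. Their median log2 fold change was 0.12, and 15 were at an unadjusted p under 0.05 (4 rose by DESeq2 and 5 by limma-voom, and 0 fell by either). Of the 37, 32 were positive, and in 11 every ergothioneine kidney lay above every untreated one, in 0 below. Their summed level was 2638 to 2791 CPM with ergothioneine and 2507 to 2604 CPM untreated, so a small upward shift was shared with complex I. The 5 that rose by edgeR were Ndufb11 (0.34 ± 0.08, edgeR adjusted p = 0.0127), Ndufa11 (0.28 ± 0.07), Ndufb2 (0.32 ± 0.08), Ndufb6 (0.33 ± 0.09) and Ndufa1 (0.27 ± 0.08). Without untreated kidney 1 the number called was 0, without ergothioneine kidney 2 or 3 it was 2, and with the library-number block 3. Of 39 tested assembly factors of complexes II to V 1 rose (2.56%), near the 3.58% of all genes tested. Standard errors of these factors ran from 0.05 to 0.19, against a median of 0.06 for the 43 subunits, so the counts are not on an equal footing. The factor that rose was Fmc1, which helps to assemble the ATP synthase head (18.4 ± 1.62 CPM with ergothioneine and 13.7 ± 0.486 CPM untreated, edgeR adjusted p = 0.0125). It missed the threshold without ergothioneine kidney 2 (0.0516) and with the library-number block (0.0528).

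Subunits of complexes III to V made in the mitochondrion did not pass, 0 of 6 by edgeR, DESeq2 and limma-voom, with 0 at an unadjusted p under 0.05. Here mt-Co1 averaged 36737 ± 3255 CPM with ergothioneine and 36233 ± 5134 CPM untreated, mt-Cytb 8046 ± 644 and 7866 ± 1408 CPM, and mt-Atp6 2248 ± 884 and 1840 ± 367 CPM (SD, n = 4 and 3). For mt-Atp6 the groups overlapped. With the library-number range as a block, 1 of the 6, mt-Atp6, was called higher (log2 fold change 0.55 ± 0.12, edgeR adjusted p = 0.0232). Ergothioneine kidney 1, the only ergothioneine library above 40, had 3533 CPM of it, and ergothioneine kidneys 2 to 4 had 1555, 2092 and 1812 CPM. Without ergothioneine kidney 1, and with no block, the log2 fold change of mt-Atp6 was -0.02 ± 0.16 (edgeR adjusted p = 0.979). Cytochrome c, Cycs, the carrier between complexes III and IV, was level at 235 ± 6.94 and 238 ± 22.7 CPM (edgeR adjusted p = 0.922). Slc25a4, an ADP and ATP exchanger, rose (0.22 ± 0.06, adjusted p = 0.0361) and lost its call in 5 of 7 fits without 1 kidney (up to 0.148) and with the library-number block (0.0510). Of 14 tricarboxylic acid cycle enzymes 1 rose (7.14%, against 3.58% of all genes tested), Idh3a (0.20 ± 0.05, edgeR adjusted p = 0.0237). Idh3a lost its call in 5 of 7 fits without 1 kidney (up to 0.0877) and with the library-number block (0.0562). Citrate synthase, Cs, did not pass (0.12 ± 0.06, adjusted p = 0.273).

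Of 18 tested regulators of respiratory genes, 0 rose by edgeR, DESeq2 or limma-voom and 2 fell, with 6 at an unadjusted p under 0.05 in either direction. By edgeR, 3.58% of all genes tested passed as higher and 3.57% as lower. The coactivator gene Pprc1 fell (19.7 ± 1.77 CPM with ergothioneine and 24.8 ± 1.47 CPM untreated, edgeR adjusted p = 0.0306), as did the fatty acid receptor gene Ppara (74.9 ± 6.03 and 112 ± 19.1 CPM, 0.0128), and without 1 kidney Pprc1 missed the threshold in 5 of 7 fits (up to 0.0954) and Ppara in 1 (0.0504). Ppargc1a, the coactivator PGC-1alpha, averaged 148 ± 9.62 CPM with ergothioneine and 131 ± 13.5 CPM untreated (SD, n = 4 and 3, adjusted p = 0.154), and it passed as higher without untreated kidney 2 (0.0283). Esrra (76.5 ± 2.14 and 76.1 ± 5.92 CPM), Nrf1 (22.3 ± 0.292 and 23.9 ± 1.26 CPM), Gabpa (63.9 ± 4.63 and 65.8 ± 4.85 CPM) and Tfam, the mitochondrial transcription factor (36.8 ± 1.31 and 39.8 ± 0.746 CPM), did not pass (adjusted p = 0.364 for Tfam, higher for the other 3). In 5 of the 18, Nrf1 and Tfam among them, every ergothioneine kidney lay below every untreated one, against 9.11% of all genes tested. In 0 of the 18 every ergothioneine kidney lay above, against 9.46%.

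The unit of the table changed the calls. In the deposited TPM, where short non-coding RNA took 12.2% and 16.2% in untreated kidneys 1 and 2 and 37.5% to 48.7% in the other 5 kidneys, the median gene lay at a log2 difference of -0.31 on log2(TPM + 1). The median subunit lay 0.06 above that, and 0 subunits passed as higher by limma. With TPM rescaled over nuclear protein-coding genes the median subunit lay at 0.12, and 1, Uqcr10, passed as higher. The p-values set the difference between groups against the spread among kidneys of a group. Neither litter nor cage is named in the labels, so the sources of that spread, technical ones included, cannot be told apart.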

How the data were processed

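RNA was measured in kidneys of 7 Slc7a9-/- mice. Per the labels' protocols, libraries were stranded, made after removal of ribosomal RNA, and amplified for 10 cycles. The submitters' processing notes name STAR 2.7.10a, RSEM 1.3.1, Salmon 1.10.1, Subread 2.0.1 with featureCounts and DESeq2, with GRCm38 and mm10, and give no role or order. No source used here gives the annotation release or the strand setting. The authors deposited expected counts, 3.61% of them not whole, and TPM values, a unit that divides by transcript length and fixes the sum per library.

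Expected counts were rounded and tested over the whole table with edgeR 4.0.16 (R 4.3.3): filterByExpr, TMM, robust quasi-likelihood F test, Benjamini-Hochberg adjustment over 15399 genes, threshold 0.05. Standard errors follow from the log2 fold change and its F statistic. CPM uses TMM library sizes. The median standard error was 0.11 over all genes and 0.06 over the 43 tested subunits. Alternatives were DESeq2 1.42.0, limma-voom and limma-trend (limma 3.58.1), other scalings, filters and pseudocounts, blocks, and fits without single kidneys. The edgeR and limma fits were tested on simulated data. Same-numbered kidneys did not deviate together (correlations 0.05, -0.08 and -0.00). No library was a copy of another, the chi-square over its degrees of freedom being 7.98 to 27.6 for pairs of the same group. Transcript lengths are medians over coding transcripts of GENCODE M21, which held 45143 of the 45706 identifiers.

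The members and lists were chosen with earlier results of these data known. Every subunit could be named. From the other lists up to 4 called genes with the smallest p, and Cycs, Ppargc1a, Esrra, Nrf1, Gabpa, Tfam, Cs, Ucp1, Cidea, mt-Co1, mt-Cytb and mt-Atp6, were to be named. Ndufa1, Ndufa13, Cox7a1, Zic1, Calb1, mt-Co3, mt-Atp8 and the genes of the pattern in untreated kidney 3 were added after their values were seen. Promoter windows came from RefSeq (GRCm38.p6). The subunits without a window were Sdhc, Cyc1, Uqcrb, Uqcrc2, Uqcrq, Cox4i1, Cox4i2, Cox6a2, Cox6c, Cox8c, Atp5a1 and Atp5mpl.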

Additional observations from a re-analysis of the deposited data

Results flagged for a closer look

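In the group of 4 ergothioneine kidneys, 1 kidney stood far from the other 3 in 2 of the 43 tested subunits, by the size of its gap to its neighbour over the whole range. Cyc1 had 236 CPM in ergothioneine kidney 2 (gap 0.922 of the range), and Atp5k had 3.41 CPM in ergothioneine kidney 1 (0.879). Chance flags about 1 in 20 groups of this size, and neither gene was called between ergothioneine and untreated.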

How the results depend on the processing

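Against 12 subunits called higher, the number called was 12 with RLE factors or a minimum of 50 counts, 12 by DESeq2 (without Atp5mpl and with Atp5g3), 13 with upper-quartile factors or nuclear protein-coding genes only, 15 without a filter, 11 by limma-voom, 9 with the replicate number as a block, and 10 with the library-number block. By limma on log2(TPM + 1), log2(TPM + 0.1) and log2(TPM + 1) for all genes above 0, 0 passed, and 1 on TPM rescaled over nuclear protein-coding genes. Without 1 kidney 4 to 12 passed, and 1 with untreated kidney 3 as the only untreated one. The subunit called lower, Cox8b, was removed by the minimum of 50 counts, which left 0. The median log2 fold change of 0.13 became 0.06 on both log2(TPM + 1) fits, relative to the median gene, and 0.18 with untreated kidney 3 alone. The 1102 genes called in all became 441 on rescaled TPM, 64 on TPM of all genes above 0, 556 with untreated kidney 3 alone, and 692 to 1103 without 1 kidney. The cause was not tested, apart from fewer samples or more genes tested by construction. The replicate block ended the calls of Cox5b, Atp5g1 and Atp5o, and those of Slc25a4, Idh3a and Pprc1 outside the subunits (edgeR adjusted p = 0.108, 0.110 and 0.0861). The library-number block ended the calls of Atp5l, Atp5mpl and Atp5o and added Cox6a1.

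The sign changed for subunits that did not pass. On both log2(TPM + 1) fits, relative to the median gene, the log2 difference was -0.03 for Sdhc, -0.06 for Uqcrb, -0.07 for Uqcrc1, -0.04 for Uqcrc2, -0.03 for Cox6b2, -0.02 for Cox6c, -0.06 for Atp5b, -0.01 for Atp5f1 and -0.05 for Atp5g2. On log2(TPM + 0.1) Uqcrc1 was -0.01 and Atp5b 0.00 (below 0 before rounding). Uqcrc1 was also -0.01 on rescaled TPM, and 0.00 with RLE factors, limma-voom or protein-coding genes only. With untreated kidney 3 alone Sdhc was -0.03, Cox6b2 -0.21 and Atp5j 0.25. Atp5j was 0.02 with the replicate block, 0.08 with the library-number block and 0.00 with upper-quartile factors, no filter or limma-voom. Without 1 kidney, Uqcrb ran from -0.11 to 0.14, Uqcrc1 from -0.03 to 0.04, Uqcrc2 from -0.01 to 0.05, Cox6b2 from -0.00 to 0.26, Cox6c from -0.09 to 0.24, Cox7a2l from -0.05 to 0.01, Atp5g2 from -0.02 to 0.09, Atp5j from -0.12 to 0.07, Atp5j2 from -0.07 to 0.15 and Atp5k from -0.12 to 0.21. Fits with 1 untreated kidney assume that it varies like the ergothioneine kidneys.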
